A study of Homo sapiens with 4 samples.

Results

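Cytokines and chemokines are secreted signals that recruit and activate leukocytes, and their receptors sit on the cells that answer. The genes described here are 44 genes of this kind, 28 ligands and 16 receptors, taken by gene name from a table of 60662 genes; all 44 were found. RNA was sequenced from NB4 cells, a human M3/APL line carrying PML-RARα, after lentiviral transduction with a control vector (2 libraries, "vector") or with a JMJD3-expressing vector (2 libraries, "JMJD3"). JMJD3, encoded by KDM6B, removes methyl groups from lysine residues of histone H3. Vectors also carried GFP, by which transduced cells were sorted, and cells were grown in DMEM with serum according to the labels or in RPMI according to the methods. Nothing in the labels says that the replicates were separate transductions, so p-values measure the spread between these libraries, which may be technical. By the labels, lane 20 held vector library 1 and lane 17 the remaining 3 libraries.

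Chemokines fall into families named after the spacing of their cysteines (CXC, CC, CX3C) and act through G-protein coupled receptors. Interleukins and tumor necrosis factor (TNF) superfamily members act through other receptor classes, and several of them, such as IL1B and TNF, drive inflammation. Myeloid cells both make and respond to these signals. Promyelocytic lines such as NB4 carry the granule program of immature granulocytes and only some of these genes.

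Most deposited counts were whole multiples of 1 value per library, the worth of a single read, which gave the number of reads behind each. Between 92.9% and 93.3% of the nonzero values per library were whole numbers of reads within 0.01 read, and every value of the 44 genes was. The recovered totals ranged from 34190262 to 41876210 reads per library, so a value of 0 allows up to 3 reads, which stand for 0.0671 to 0.0925 CPM (counts scaled to TMM-adjusted library totals). Such limits cover counting error only. Reads below are these recovered values, and CPM and tests use the deposited counts.

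The vector gene was checked first. KDM6B had 511 and 501 reads in vector libraries 1 and 2 and 1412 and 1973 reads in JMJD3 libraries 1 and 2, which did not overlap. This was a log2 fold change of 1.48 ± 0.13 (SE; edgeR adjusted p = 0.00114). Reads from the vector and from the cells' own KDM6B cannot be told apart. Of 10 promyelocyte markers 9 were above 1 FPKM (a fragment count scaled by transcript length and library total), led by MPO with a mean of 4972 FPKM in vector and 3301 FPKM in JMJD3 libraries, whereas the granule protease gene ELANE had 11 and 7 reads in vector and 1 and 2 reads in JMJD3 libraries. In the JMJD3 libraries 2 of these markers rose and 6 fell, and their summed level was 17050 and 17910 CPM in vector libraries against 10960 and 10890 CPM in JMJD3 libraries. Their part in the results below was not tested. In bulk RNA a change in the share of a cell type and a change in RNA per cell cannot be told apart.

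Markers of other cells were mostly at or near 0. Erythroid markers were at 0 in every library (5 of 5). The T-cell markers CD3E and CD5, the B-cell markers MS4A1 and PAX5, and the NK-cell markers KLRD1 and NCR1 had under 3 reads in every library, as did CD163, MARCO, FCGR3A, MRC1 and VCAN among 8 monocyte and macrophage markers and MMP8, LTF, FCGR3B and ARG1 among 7 neutrophil markers. The monocyte list summed to 7.31 and 5.73 CPM in vector and 15.5 and 15.4 CPM in JMJD3 libraries, with CSF1R, the receptor for CSF1, its most abundant gene (2.11 and 5.53 FPKM), which rose (log2 fold change 1.56 ± 0.15, edgeR adjusted p = 0.00140). The 6 T-cell markers summed to 4.10 and 5.73 CPM in vector and 11.8 and 11.7 CPM in JMJD3 libraries, of which CD2 was the most abundant and the only one of 2 tested that rose (3.13 and 7.95 FPKM). The B-cell list, led by CD79B, summed to 25.9 and 30.8 CPM against 36.6 and 32.8 CPM, and of its tested genes CD79A rose (log2 fold change 0.83 ± 0.13). The NK-cell list, led by NKG7, summed to 94.0 and 111 CPM against 91.8 and 89.7 CPM, and NCAM1 fell (-0.92 ± 0.16). The neutrophil list, led by CSF3R, summed to 62.2 and 64.8 CPM against 75.6 and 74.5 CPM. This list includes CXCR2, which is also among the 44 genes. CSF3R did not pass (edgeR adjusted p = 0.0551), whereas CAMP, a granule protein gene, rose from 2 and 4 reads to 15 and 13 reads (2.09 ± 0.56). CAMP passed the expression filter only through its JMJD3 libraries. The megakaryocyte list, led by GP1BA, summed to 2.53 and 1.92 CPM against 3.40 and 3.51 CPM, and ITGA2B rose (1.43 ± 0.24). The epithelial and stromal list, led by EPCAM, summed to 5.00 and 5.70 CPM against 2.14 and 2.17 CPM; EPCAM fell (log2 fold change -2.05 ± 0.18), but PDGFRB, the other tested gene, rose from 11 and 8 reads to 32 and 43 reads (1.70 ± 0.36). The part of these genes in the results below was not tested either.

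Of the 44 genes, 28 passed the expression filter, 10 were higher and 6 lower in JMJD3 libraries, and 12 passed neither way. Over the 15246 tested genes 21.6% were higher and 19.1% lower, against 35.7% and 21.4% of the tested cytokine and receptor genes. Their median log2 fold change was 0.01, and that of all tested genes 0.04. Among ligands 4 rose and 5 fell of 17 tested (median -0.36), and among receptors 6 rose and 1 fell of 11 tested (median 0.82). Without vector library 1, which leaves only lane 17 and a single vector library, 10 were higher and 7 lower. The number lower was 3 without JMJD3 library 1 and 2 without JMJD3 library 2. Because a gene that is high in only 1 group can pass the filter through that group, these counts describe the tested genes and not all 44. Among the receptors that rose, CCR7 passed only through its JMJD3 libraries. Over all tested genes the number lower also dropped without JMJD3 library 1 and without JMJD3 library 2.

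**Figure D1:**
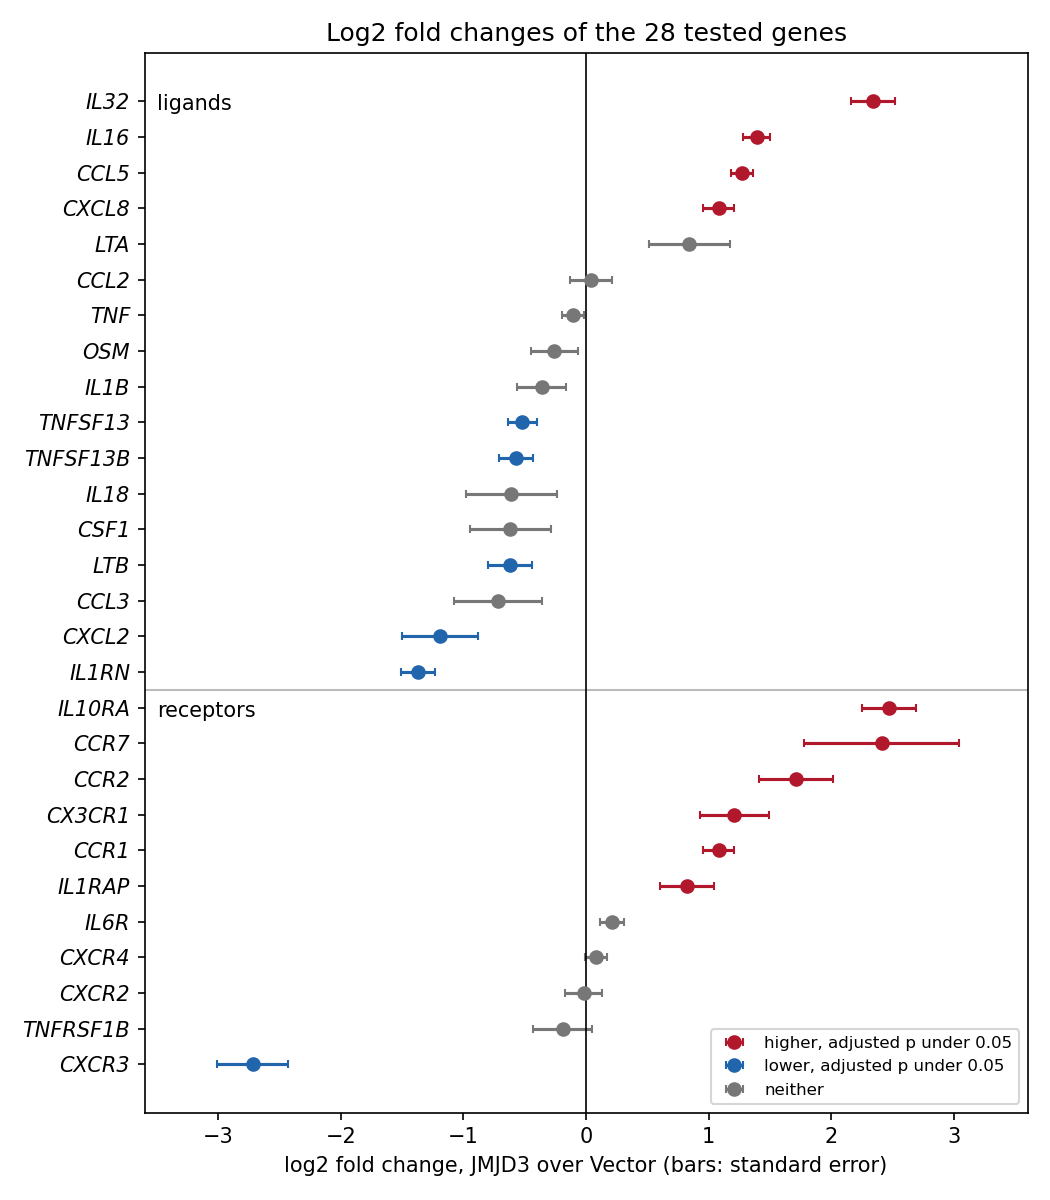
Log2 fold changes of the 28 tested genes (JMJD3 over vector) with their standard errors, ligands above and receptors below. Red and blue mark genes that rose and fell in the test; CXCR3 lies lowest at -2.72 and IL10RA highest at 2.47.

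Among ligands the T-cell and macrophage chemoattractant CCL5 had the highest mean level per length. CCL5 was at 75.0 and 83.6 CPM in vector libraries and 197 and 186 CPM in JMJD3 libraries (2432, 3047, 7358 and 8321 reads). Both JMJD3 libraries lay above both vector libraries, with a log2 fold change of 1.27 ± 0.09 (edgeR adjusted p = 0.000691). IL32, a cytokine that induces TNF and other mediators in myeloid cells, had the largest rise among ligands, from 5.86 and 8.58 CPM to 38.1 and 35.3 CPM. The groups did not overlap, and the log2 fold change was 2.34 ± 0.18 (edgeR adjusted p = 0.000929).

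IL16, a chemoattractant for CD4 cells released from a larger precursor, rose from 7.68 and 8.37 CPM to 20.4 and 21.7 CPM, a log2 fold change of 1.39 ± 0.11 (edgeR adjusted p = 0.00101). Exons of IL16 share 34.9% of their bases with the antisense gene STARD5 in GENCODE release 44, and STARD5 moved the same way, with 81 and 74 reads in vector and 323 and 383 reads in JMJD3 libraries (log2 fold change 1.93 ± 0.16). The labels do not say that strand was used in counting, so reads of the shared stretch cannot be told apart. CXCL8, the chemoattractant of neutrophils, rose from 5.52 and 4.83 CPM to 10.7 and 11.2 CPM, a log2 fold change of 1.08 ± 0.13 (edgeR adjusted p = 0.00234). These 4 ligands were higher in 2 of 2 JMJD3 libraries, and each kept its call in every alternative that was run.

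**Figure D2:**
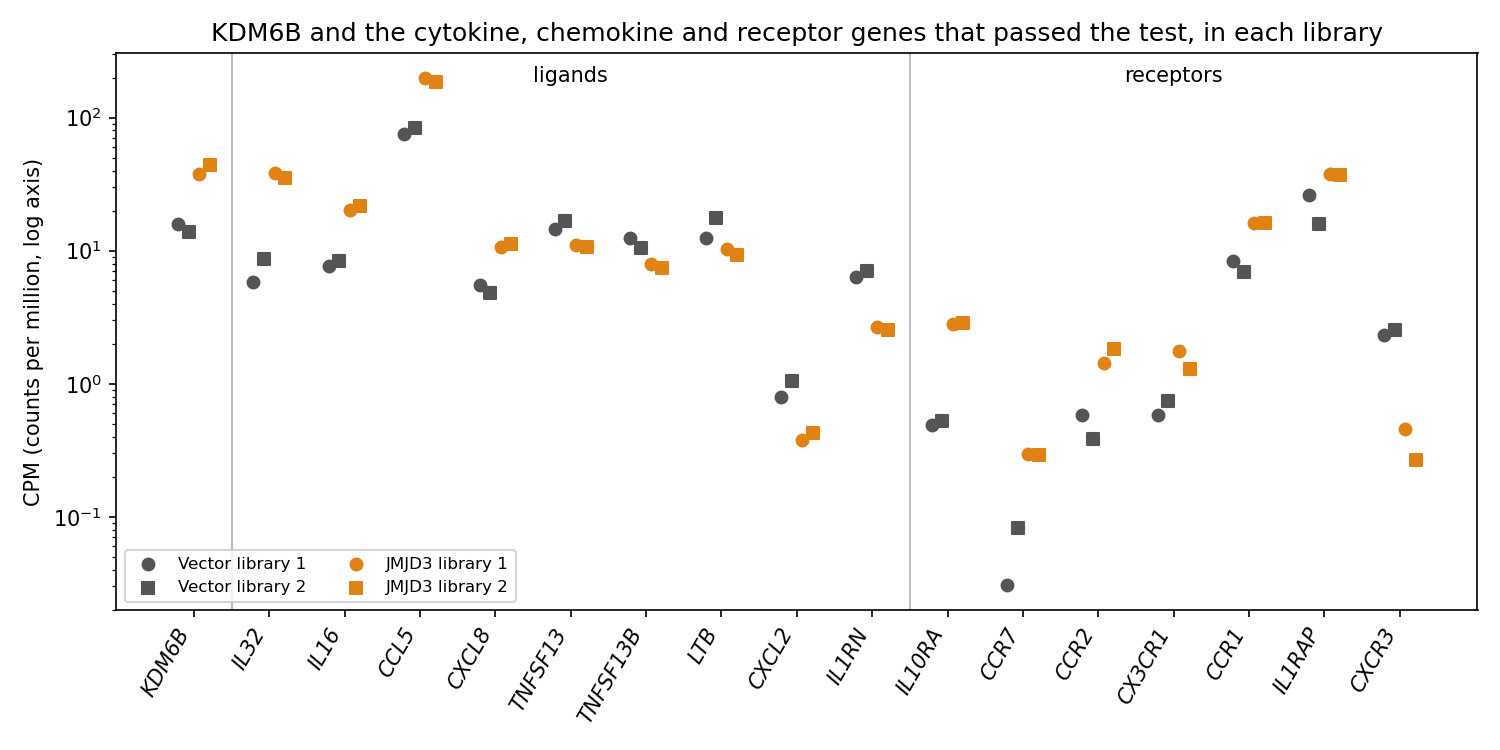
CPM (log axis) of KDM6B and of the 16 genes that passed the test, in each of the 4 libraries, with ligands and receptors apart. Grey points are vector and orange points JMJD3 libraries, and for none of these genes do the groups overlap.

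CXCL2, another neutrophil chemokine, fell from 0.802 and 1.04 CPM (26 and 38 reads) to 0.375 and 0.425 CPM (14 and 19 reads). Its log2 fold change was -1.19 ± 0.31 (edgeR adjusted p = 0.0243), but adjusted p was 0.0679 without vector library 2, 0.144 without JMJD3 library 1, 0.0972 without JMJD3 library 2, 0.0527 with no filter and 0.113 with DESeq2. IL1RN, which encodes the antagonist that blocks the IL-1 receptor, fell from 6.38 and 6.99 CPM to 2.65 and 2.53 CPM. Its log2 fold change was -1.37 ± 0.14 (edgeR adjusted p = 0.00179), and it kept its call in every alternative. IL1B, the agonist of the same receptor, had 78 and 84 reads in vector and 77 and 72 reads in JMJD3 libraries and did not pass (log2 fold change -0.36 ± 0.20, adjusted p = 0.186).

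All 5 TNF superfamily ligands were tested, and 3 of them fell, each by less than 2-fold, where 19.1% of all tested genes fell. LTB, which forms membrane lymphotoxin with LTA, was at 12.5 and 17.6 CPM in vector and 10.2 and 9.31 CPM in JMJD3 libraries, with the vector libraries further apart than the JMJD3 libraries. Its log2 fold change was -0.62 ± 0.18 (edgeR adjusted p = 0.0310). The B-cell survival factors TNFSF13B (BAFF) and TNFSF13 (APRIL) also fell. TNFSF13B went from 12.6 and 10.5 CPM to 7.99 and 7.47 CPM (log2 fold change -0.57 ± 0.14, adjusted p = 0.0175), and TNFSF13 from 14.6 and 16.6 CPM to 11.0 and 10.6 CPM (-0.52 ± 0.12, adjusted p = 0.0141). These 3 calls were lost without JMJD3 library 2 (adjusted p = 0.0905, 0.123 and 0.133 for LTB, TNFSF13B and TNFSF13), and those of TNFSF13B and TNFSF13 also without JMJD3 library 1 (0.0576 and 0.0888). LTB and TNFSF13B did not pass with no filter (0.112 and 0.0596), with limma on log2(FPKM + 1) (0.0622 and 0.0585) or with limma on log2(FPKM + 0.1) (0.0557 and 0.0516). TNFSF13 shares 55.5% of its exon bases with the readthrough gene TNFSF12-TNFSF13, to which 0 reads were assigned in every library.

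TNF itself, a main driver of inflammation, did not pass the test. TNF was at 85.5 and 95.2 CPM in vector and 85.8 and 81.7 CPM in JMJD3 libraries, so the groups overlapped (log2 fold change -0.11 ± 0.09, adjusted p = 0.372); without vector library 1 it was lower at an adjusted p of 0.0325 (log2 fold change -0.23). LTA had 15 and 28 reads in vector and 46 and 42 reads in JMJD3 libraries (log2 fold change 0.84 ± 0.33, adjusted p = 0.0861), and passed without vector library 2 (adjusted p = 0.0421). The other tested ligands, CCL2, CCL3, IL18, CSF1 and OSM, had log2 fold changes between -0.72 and 0.04 and did not pass (adjusted p between 0.152 and 0.852). CCL3 had 12 to 19 reads per library while its near-identical copy CCL3L3 had 61 to 89, so that their split is uncertain, and 74.6% of CCL3 exon bases also lie within an antisense gene with 1 or 2 reads per library.

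**Figure D3:**
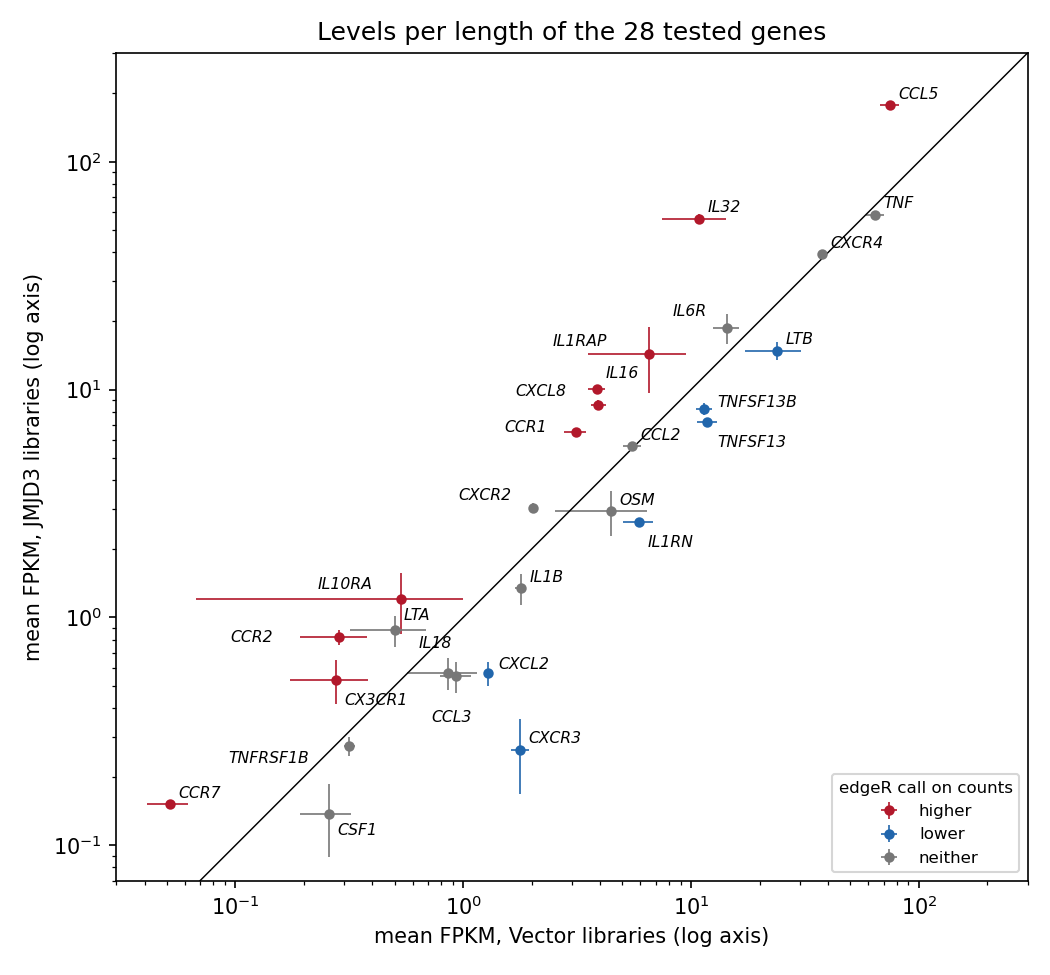
Mean FPKM of the 28 tested genes in vector (x axis) and JMJD3 libraries (y axis), both on log axes, with bars for the SD over 2 libraries and a line where both are equal. CCL5 lies at the top with 75.0 and 177 FPKM and CCR7 at the bottom left.

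Compared per length, the 5 tested genes with the highest mean FPKM over all 4 libraries were CCL5, TNF, CXCR4, IL32 and LTB. Within a group the order differed. IL6R, TNFSF13 and TNFSF13B lay above IL32 in vector libraries (14.38, 11.79 and 11.45 against 10.9 FPKM). In JMJD3 libraries IL6R lay above LTB (18.61 against 14.8 FPKM). CCL5 had a mean of 75.0 ± 7.12 FPKM (SD, n = 2) in vector and 177 ± 6.21 in JMJD3 libraries, TNF 64.5 ± 6.08 and 58.6 ± 1.79, and CXCR4 37.7 ± 1.07 and 39.2 ± 0.942. IL32 went from 10.9 ± 3.43 to 56.3 ± 2.83 FPKM and LTB from 23.9 ± 6.68 to 14.8 ± 1.28. In vector libraries LTB thus lay above IL32, and in JMJD3 libraries IL32 reached the level of TNF (58.3 and 54.3 against 59.9 and 57.3 FPKM). CXCR4, the receptor for CXCL12 that retains cells in bone marrow, was at 54.9 and 51.5 CPM in vector and 57.4 and 55.2 CPM in JMJD3 libraries and did not pass (log2 fold change 0.08 ± 0.09, adjusted p = 0.504).

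Among receptors, the 1 that fell had the largest change of any tested gene of the 44. CXCR3, which binds the interferon-induced chemokines CXCL9, CXCL10 and CXCL11, had 75 and 92 reads in vector libraries but 17 and 12 reads in JMJD3 libraries (2.31, 2.52, 0.456 and 0.269 CPM). Its log2 fold change was -2.72 ± 0.29 (edgeR adjusted p = 0.00177), or 6.58-fold lower. In the fits that left out a library it ranged from -3.15 to -2.39 and kept its call.

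By counts, IL10RA, the ligand-binding chain of the IL-10 receptor, was among the genes with the largest rises, with CCR7 and IL32. It had 16 and 19 reads in vector and 105 and 127 reads in JMJD3 libraries (0.493, 0.521, 2.82 and 2.84 CPM), which did not overlap. Its log2 fold change was 2.47 ± 0.22 (edgeR adjusted p = 0.00115). Its FPKM values lay further apart within each group, at 0.204 and 0.863 in vector and 1.46 and 0.948 in JMJD3 libraries, and limma on log2(FPKM + 1) gave an adjusted p of 0.121. The more abundant chain IL10RB went from 33.3 and 35.8 CPM to 43.3 and 43.7 CPM (0.33 ± 0.10, adjusted p = 0.0347). IL10, the ligand, had 4, 4, 1 and 1 reads and was dropped by the filter.

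Of the 8 chemokine receptors 7 were tested, and CCR1, CCR2, CCR7 and CX3CR1 rose, where 21.6% of all tested genes rose. CCR7 passed the expression filter only through its JMJD3 libraries. CCR1, a receptor for CCL5 and CCL3, went from 8.36 and 6.94 CPM to 16.3 and 16.1 CPM (log2 fold change 1.08 ± 0.13, edgeR adjusted p = 0.00228), and CCR2, the receptor for CCL2 on classical monocytes, from 19 and 14 reads to 53 and 81 reads (1.71 ± 0.30, adjusted p = 0.00646). CX3CR1, the fractalkine receptor, had 19 and 27 reads in vector and 66 and 58 reads in JMJD3 libraries (1.21 ± 0.28, adjusted p = 0.0162). CCR7, which guides lymphocytes and dendritic cells to lymph nodes, had only 1 and 3 reads against 11 and 13 reads (2.41 ± 0.63, adjusted p = 0.0234). The call of CX3CR1 was lost without JMJD3 library 1 (adjusted p = 0.120) and that of CCR7 without vector library 1 (0.0571), JMJD3 library 1 (0.123) or JMJD3 library 2 (0.125); DESeq2 called neither (0.0530 and 0.136). With no filter CCR7 did not pass (0.0640).

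IL1RAP, the accessory chain shared by receptors of the IL-1 family, was at 26.1 and 15.9 CPM in vector and 37.4 and 37.0 CPM in JMJD3 libraries. The vector libraries differed from each other, and the log2 fold change was 0.82 ± 0.22 (edgeR adjusted p = 0.0236). With no filter the adjusted p was 0.108, and with limma on log2(FPKM + 1) it was 0.0614. IL6R, CXCR2 and TNFRSF1B had log2 fold changes of 0.21 ± 0.10, -0.02 ± 0.15 and -0.19 ± 0.24 and did not pass, while IL6R passed without vector library 1 (adjusted p = 0.0356).

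**Figure D4:**
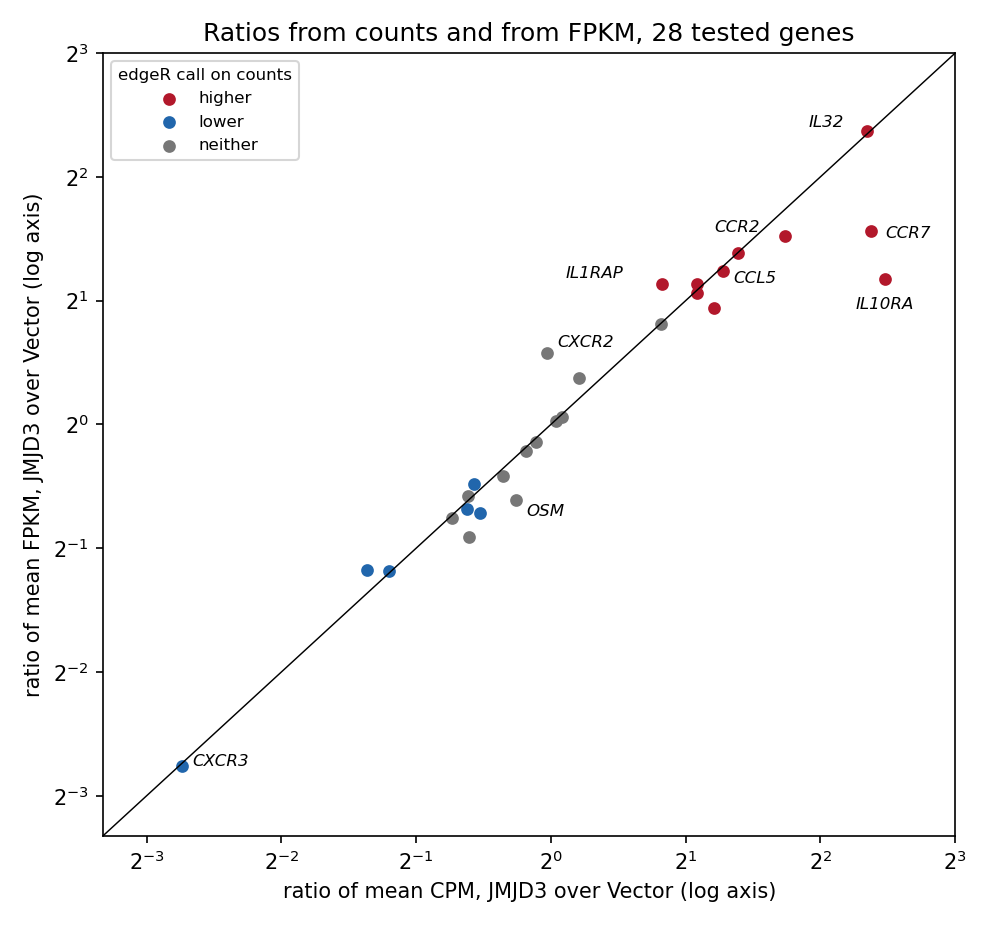
Ratio of JMJD3 to vector means for the 28 tested genes, from CPM (x axis) and from FPKM (y axis), on log axes with a line where both are equal. IL10RA and CCR7 lie to the right of the line and CXCR2 above it, while CCL5, IL32 and CXCR3 lie on or close to it.

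Counts and FPKM gave different ratios for a few genes. For CXCR2, a receptor for CXCL8, mean CPM was 4.77 in vector and 4.68 in JMJD3 libraries, but mean FPKM was 2.03 ± 0.0515 and 3.03 ± 0.160, 1.49-fold higher. For IL10RA the ratio of means was 5.58 from CPM and 2.25 from FPKM, and for CCR7 5.18 and 2.95. FPKM depends on the transcript length assigned to a gene in a library. The count per FPKM, set to 1 in vector library 1, was 0.246, 0.887 and 1.39 in vector library 2 and JMJD3 libraries 1 and 2 for IL10RA, 0.861, 0.665 and 0.714 for CXCR2, and 3.54, 4.11 and 4.15 for CCR7, against 0.961, 1.12 and 1.13 for CCL5. For IL10RA, CXCR2 and CCR7 the level per length is thus less certain than the count.

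Another 16 of the 44 genes could not be tested. CXCL1, CXCL5, IL6, LIF, CXCR1, IL1R2 and FPR1 had under 3 reads in every library, below the floor of 3 reads. Of these CXCL1 and CXCR1 had 0 reads throughout, while IL1R2 had 1 or 2 reads in each library. Among them are the fever-inducing cytokine IL6 and the formyl peptide receptor FPR1 of mature neutrophils. CXCL3, CXCL10, CXCL16, CCL4, IL1A, IL10, IL15, IL1R1 and FPR2 had between 0 and 16 reads in a library and were dropped by the filter. Their ranges were 1 to 8 reads for CXCL3 and CXCL10, 4 to 16 for CXCL16, 6 to 10 for CCL4, 0 to 4 for IL1A, 1 to 4 for IL10, 0 to 3 for IL15, 0 to 5 for IL1R1 and 1 to 6 for FPR2.

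The families were also summed. Ligands together were at 239 and 267 CPM in vector and 397 and 377 CPM in JMJD3 libraries. Most of this difference was CCL5 (75.0 and 83.6 to 197 and 186 CPM) and IL32 (5.86 and 8.58 to 38.1 and 35.3 CPM). Of 17 tested ligands 4 rose and 5 fell. Receptors together were at 174 and 150.2 CPM in vector and 202 and 205 CPM in JMJD3 libraries. CC chemokines, nearly all CCL5, went from 78.6 and 86.8 CPM to 201 and 189 CPM, while IL-1 family ligands went from 9.50 and 10.3 CPM to 5.25 and 4.81 CPM. Most of the latter difference was IL1RN (6.38 and 6.99 to 2.65 and 2.53 CPM), and IL1B and IL18 did not pass the test. TNF superfamily ligands were at 126 and 141 CPM in vector and 116 and 110.1 CPM in JMJD3 libraries.

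A further 181 genes of the same pathways were read from 7 lists, and 70 of them were tested. Of these 30 rose (42.9%) and 12 fell (17.1%), against 21.6% and 19.1% of all tested genes, with a median log2 fold change of 0.29. The 30 include CCL25, CCR3, IL2RB and TNFSF4, which passed the expression filter only through their JMJD3 libraries. TNFRSF9 passed it only through its vector libraries and was called neither way. With at least 10 counts in every library 26 rose and 11 fell. Without JMJD3 library 1 or 2 fewer genes were called in each direction, here and over all tested genes. Among 9 tested chemoattractant receptors 5 rose and 1 fell, among 16 interleukin receptors 8 rose and 4 fell, and among 17 genes of the TNF superfamily 7 rose and 3 fell. Of 12 genes of the IL-1 family and inflammasome 4 rose and 2 fell, of 8 proteases and regulators of shedding 3 rose, of 5 interleukins and gp130 cytokines 1 rose and 1 fell, and of 3 chemokines 2 rose and 1 fell.

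**Figure D5:**
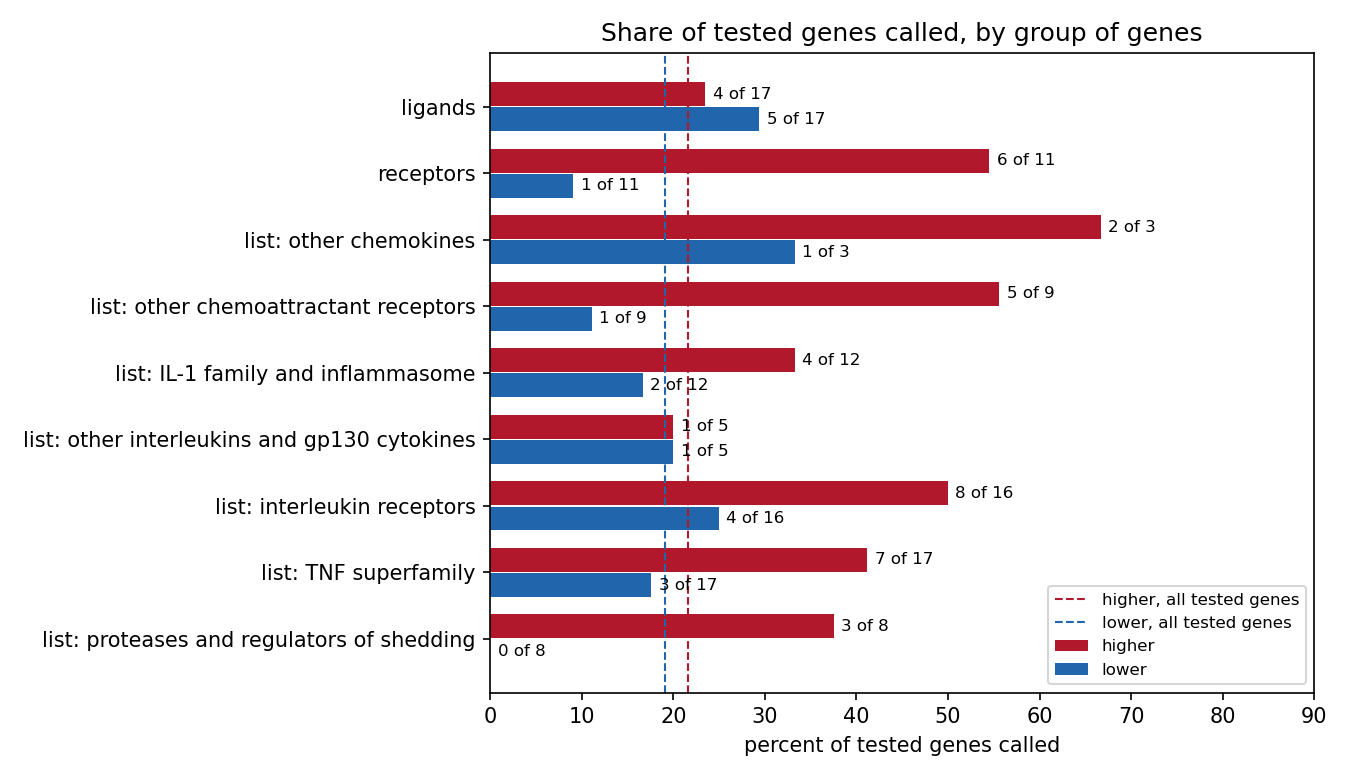
Percent of tested genes called higher (red) and lower (blue) among the ligands and receptors and in the 7 further lists, with the numbers beside the bars. Dashed lines mark 21.6% higher and 19.1% lower over all tested genes. The receptors stand at 54.5% higher, which includes CCR7, a gene that passed the expression filter only through its JMJD3 libraries.

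The receptors for complement C5a moved in opposite directions, and C3AR1, the C3a receptor, did not pass (log2 fold change -0.02 ± 0.13, adjusted p = 0.925). C5AR1, the signalling receptor for C5a, fell from 176 and 183 reads to 53 and 70 reads (log2 fold change -1.80 ± 0.16, edgeR adjusted p = 0.00123), whereas C5AR2, the alternative C5a receptor, rose from 90 and 108 reads to 295 and 310 reads (1.37 ± 0.15, adjusted p = 0.00184). The eosinophil chemokine receptor CCR3 rose from 2 and 5 reads to 15 and 22 reads (2.22 ± 0.53). The chemokines CCL25 and CCL20 rose (2.21 ± 0.46 and 0.85 ± 0.19), and CCL22 fell (-1.43 ± 0.39, adjusted p = 0.0281). Both CCR3 and CCL25, the latter with 4 and 8 reads against 22 and 46 reads, passed the expression filter only through their JMJD3 libraries. With a library left out, which leaves a lone library in its group, some of these genes no longer passed but kept their direction. Without JMJD3 library 2 the log2 fold changes were 2.09 for CCR3 and 1.77 for CCL25 (adjusted p = 0.103 and 0.0828), and without JMJD3 library 1 they were 0.63 for CCL20 and -0.99 for CCL22 (0.104 and 0.190). CCL22 also did not pass without vector library 2 (-1.31, adjusted p = 0.0778).

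In the TNF superfamily, TNFSF10 (TRAIL), a death ligand, rose from 215 and 259 reads to 734 and 803 reads (log2 fold change 1.45 ± 0.12, edgeR adjusted p = 0.000997). TNFRSF25, a death receptor, rose from 145 and 212 reads to 502 and 615 reads (1.40 ± 0.15), and the costimulatory ligand TNFSF4 (OX40L) from 9 and 6 reads to 41 and 38 reads (2.17 ± 0.39), having passed the expression filter only through its JMJD3 libraries. Of the IL-1 family, IL18R1, a chain of the IL-18 receptor, rose by a log2 fold change of 1.13 ± 0.20, the IL-33 receptor IL1RL1 by 0.91 ± 0.24, and SIGIRR, an inhibitory receptor, by 0.70 ± 0.13. Of these, the call of IL1RL1 was lost without vector library 1, JMJD3 library 1 or JMJD3 library 2 (adjusted p = 0.0502, 0.156 and 0.148).

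Among interleukin receptors, IL2RB, a chain of the IL-2 and IL-15 receptors, and IL17RC, a chain of the IL-17 receptor, rose (log2 fold change 1.92 ± 0.38 and 1.19 ± 0.20). IL2RB, with 5 and 8 reads against 24 and 35 reads, passed the expression filter only through its JMJD3 libraries. Among cytokines CLCF1 fell (-0.45 ± 0.13, edgeR adjusted p = 0.0333), and EBI3, a subunit of IL-27, rose (1.22 ± 0.24). The metalloproteases ADAM9 and ADAM8 and RHBDF2, which helps bring the TNF-releasing protease to the cell surface, rose by log2 fold changes of 0.76 ± 0.17, 0.69 ± 0.13 and 0.76 ± 0.11. IL2RB and ADAM8 were lost without JMJD3 library 2 (adjusted p = 0.0659 and 0.0612). CLCF1 was lost without either JMJD3 library (0.183 and 0.288) and with the replicate number as a block (0.0748).

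Many of these genes lie in clusters, which were looked at after their values were seen. In RefSeq (GRCh38.p14) genes of the lists were joined where gaps were at most 200 kb. On chromosome 3, CCR1, CCR3, CCR2 and CCRL2 lie in 1 cluster, and these 4 were the listed genes tested there. All 4 rose, where 21.6% of all tested genes rose, with the limit given above for CCR3. In other clusters the tested genes went either way. TNFRSF12A and IL32 on chromosome 16 both rose, and of 7 other tested genes within that cluster 4 rose and 1 fell. CD70 and TNFSF14 on chromosome 19 and IL1RL1 and IL18R1 on chromosome 2 rose next to 1 tested gene each that did not pass. The inflammasome caspases CASP4 and CASP1 on chromosome 11 both fell (-0.37 and -0.44, edgeR adjusted p = 0.0171 and 0.0193), where 19.1% of all tested genes fell. Calls of these caspases were not read in the alternatives. CCRL2, an atypical chemoattractant receptor, went from 26 and 39 reads to 81 and 98 reads (log2 fold change 1.20 ± 0.23, edgeR adjusted p = 0.00803). FYCO1, the only other tested gene within the cluster, was called neither way. On chromosome 4 the CXC cluster held 8 listed genes, of which only CXCL8 and CXCL2 were tested, and they moved in opposite directions. On chromosome 6, LTA, TNF and LTB are neighbours, and only LTB passed the test.

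The 250 bases before the start of CCR1 and CCR2, which share a cluster and rose, and of CXCL8 and CXCL2, which share a cluster but moved apart, are shown from RefSeq (GRCh38.p14; the submitters' notes name GRCh38 and the methods hg19). They lie at chr3:46208314-46208563 (minus strand, CCR1), chr3:46353861-46354110 (plus strand, CCR2), chr4:73740319-73740568 (plus strand, CXCL8) and chr4:74099196-74099445 (minus strand, CXCL2), each upstream of its gene. Capitals mark exact matches, on either strand, to the kappa B motif (GGGRNNYYCC), C/EBP (TTGCNNAA), AP-1 (TGANTCA) or the TATA box (TATAAA). In these letters R is A or G, Y is C or T, and N is any base.
CCR1: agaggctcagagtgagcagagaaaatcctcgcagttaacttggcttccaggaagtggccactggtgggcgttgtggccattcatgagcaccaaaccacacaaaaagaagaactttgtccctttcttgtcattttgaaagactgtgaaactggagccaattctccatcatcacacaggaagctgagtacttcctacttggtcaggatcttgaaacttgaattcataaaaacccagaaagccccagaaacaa
CCR2: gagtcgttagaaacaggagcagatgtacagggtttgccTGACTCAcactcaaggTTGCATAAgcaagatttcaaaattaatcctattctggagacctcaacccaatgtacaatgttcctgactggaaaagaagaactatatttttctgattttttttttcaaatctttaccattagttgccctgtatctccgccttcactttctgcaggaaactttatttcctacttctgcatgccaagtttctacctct
CXCL8: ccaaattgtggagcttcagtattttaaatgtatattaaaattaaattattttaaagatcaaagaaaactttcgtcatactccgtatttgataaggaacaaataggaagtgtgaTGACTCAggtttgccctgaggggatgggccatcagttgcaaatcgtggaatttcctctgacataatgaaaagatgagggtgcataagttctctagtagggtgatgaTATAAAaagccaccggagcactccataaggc
CXCL2: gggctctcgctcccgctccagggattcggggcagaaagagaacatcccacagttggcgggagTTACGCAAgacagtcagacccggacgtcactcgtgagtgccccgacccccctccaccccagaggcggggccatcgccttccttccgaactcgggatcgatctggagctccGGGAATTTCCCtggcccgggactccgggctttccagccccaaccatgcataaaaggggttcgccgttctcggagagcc

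In these windows CXCL2 held a kappa B match, found on both strands in overlapping positions from base 78 before the start, and a C/EBP match. CXCL8 held an AP-1 match from base 137 before the start and a TATA box from base 31. The CXCL8 window also holds ttgcaaat and tggaatttcc, which differ at a single base from the C/EBP and kappa B letters. Such near matches were not sought or counted, so a window without a match can still hold a related sequence. CCR2 held an AP-1 and a C/EBP match, and CCR1 held no match to these 4 motifs. The untested CXCL1, CXCL3 and CXCL5 also held the kappa B motif.

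Of the 44 genes 34 had such a window in the table of RefSeq windows used, 56 windows in all. CCL2, CCL4, CCL5, CCR7, CSF1, CXCL16, IL15, IL18, LIF and OSM have RefSeq positions but were not in this table. The kappa B motif was found in 23.2% of these windows and in 9.96% of all 35116 windows, C/EBP in 12.5% and 9.05%, AP-1 in 12.5% and 6.57%, and the TATA box in 17.9% and 10.7%. By call, the kappa B motif was found for IL32 among 8 genes that rose, for CXCL2, LTB and TNFSF13 among 6 that fell, for LTA among 8 tested genes that did not pass, and for 7 of 12 genes that were not tested. A match is a description of the sequence and was not tested as a site.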

How the data were processed

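The authors deposited, for each gene and library, an estimated count and an FPKM value; their own mean, fold change, p-value and FDR columns were not used. The submitters' notes name CASAVA 1.8, TopHat2 2.0.4, RSEM, edgeR and GRCh38, whereas the methods name STAR with hg19, HTSeq-count and DESeq2. The deposited counts of each library had been multiplied by 1 factor (0.82875 to 1.14297 per read; its origin is not stated), so their sums (34704909 to 40768225) are not the depth.

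Deposited counts were rounded. After filterByExpr (15246 of 60662 genes) and TMM scaling, edgeR 4.0.16 in R 4.3.3 fitted its quasi-likelihood model (glmQLFit, glmQLFTest) over all 4 libraries without covariates, with Benjamini-Hochberg adjustment over all tested genes; calls are at an adjusted p under 0.05. CPM uses TMM-scaled totals, and SE is the absolute log2 fold change over the root of F. The code was tested on simulated data.

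Values per library are given for each gene of the 44 with an adjusted p under 0.05 and for KDM6B. They are also given for the 5 tested genes with the highest mean FPKM over all 4 libraries. Of each further list up to 3 genes with the largest change at that threshold are named. Results for some genes are not reported here. STARD5, CCL3L3, CCRL2, FYCO1, IL10RB, CASP1, CASP4, TNFRSF12A, CD70, TNFSF14 and the readthrough gene were added after the values were seen. The genes and lists were chosen with earlier results of these data known. Alternatives were DESeq2 1.42.0 (size factors, Wald test), upper quartile scaling, no filter, limma 3.58.1 on log2 FPKM with 0.1 or 1 added, at least 10 counts in every library, a replicate block, each library left out, and a 2-fold threshold. Recovered reads and a block with crossed numbers were added after seeing the data. Exon overlaps are from GENCODE release 44 (GRCh37 positions, not printed).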

Additional observations from a re-analysis of the deposited data

How the results depend on the processing

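Over 666 values of 28 tested genes of the 44 and 20 genes that the rule took from the further lists, 589 kept their direction and side of the threshold, 66 lost their call, 5 gained one and 6 changed direction; the cause of these changes was not tested unless named. The direction changed for CCL2 without vector library 2 (-0.046) and without JMJD3 library 1 (-0.013), and for CXCR2 with upper quartile scaling (0.015), limma on log2(FPKM + 1) (0.41), limma on log2(FPKM + 0.1) (0.55) and without vector library 1 (0.064, against -0.15 without vector library 2); neither gene passed in any of these.

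Of the 44 genes, the number called higher (10) was 6 with either limma fit, which lost CCR7, CX3CR1, IL10RA and IL1RAP, and 8 to 11 with a library left out. The number called lower (6) was 4 with either limma fit, which lost LTB and TNFSF13B, 3 with no filter and 3 at 2-fold or more, and 2 to 7 with a library left out, lowest without JMJD3 library 2. Over all tested genes, the number higher (3292) was 2046 and 2032 with limma, 1893 with no filter and 1151 at 2-fold or more, and 1890 to 4248 with a library left out; the number lower (2906) was 1776, 430 and 1110 to 4212 with no filter, at 2-fold or more and with a library left out. Of the further lists, 30 higher became 16 at 2-fold or more and 20 to 31 with a library left out, and 12 lower became 7 with limma on log2(FPKM + 1), 6 with no filter, 3 at 2-fold or more and 4 to 15 with a library left out. Among the 20 genes that the rule took from those lists, DESeq2 lost the calls of CCL22, CCR3, IL1RL1, EBI3 and CLCF1. No filter lost those of CCL20, CCL22, CCR3, CLCF1 and ADAM9, and at least 1 limma fit those of CCL22, IL1RL1, IL18R1, CLCF1, IL2RB and ADAM8. Calls of CCRL2, IL10RB, CASP1, CASP4, TNFRSF12A, CD70 and TNFSF14, added later, were not read in the alternatives. A lone library of a group was assumed to vary like the other group. CCR7 and several genes of the further lists had no value with at least 10 counts in every library, where they were not tested. KDM6B ranged from 1.36 to 1.58 with a library left out.

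With the replicate number as a block, 10 and 6 of the 44 genes were called, the same genes. Over all it called 3267 and 2415 genes, and KDM6B was at 1.47. Of the further lists 28 genes were called higher and 11 lower with this block. Among the 28 tested genes of the 44 and the 20 that the rule took from those lists, only the call of CLCF1 changed. Calls of the other genes of those lists were not read singly. Deviations of same-numbered libraries correlated at -0.251 over 15246 genes, so a block with crossed numbers was added. It called 12 and 6 of the 44 genes and 4335 and 3772 over all. With 2 libraries per group, crossing the numbers only turns the sign of that correlation. The crossed block was chosen from these same data, so its larger counts are not a separate check. Recovered reads gave 10 and 6, the same genes, and 3304 and 2915 over all. The vector libraries differed from each other more than the JMJD3 libraries (median chi-square per gene 4.0 and 1.24). The low counts of CCR7, CXCL2, CX3CR1 and CCR2 make the size of their changes uncertain.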
